A study of Mus musculus with 6 samples.

Results

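RNA-seq of Mll-AF9 leukemias was used to follow 10 enzymes that make serine and pass its carbon to folate, in cells with and without the ribosomal protein Rpl22. The enzymes were Phgdh, Psat1, Psph, Shmt1, Shmt2, Mthfd1, Mthfd1l, Mthfd2, Aldh1l2 and Tyms, chosen by name for their place in the pathway, and they are 10 of the 29374 genes that received any reads. Mll-AF9 is a fusion oncogene that causes acute myeloid leukemia, and every animal carried it as a knockin, so the Rpl22+/+ group is a leukemia and not healthy marrow. Poly(A) RNA came from spleen cells sorted for the myeloid surface markers CD11b and Gr1, in 3 libraries from Rpl22+/+ and 3 from Rpl22-/- tumor-bearing mice. The study's methods describe its mice as young adults backcrossed to C57BL/6, with an age range given for all its experiments together and none per library. Where the study describes the sequenced leukemias it gives 1 mouse identifier per genotype, and the labels number the libraries without naming an animal. The 3 libraries of a genotype may therefore be repeat samples of 1 leukemia, in which case the p-values and SDs measure technical spread, and genotype and animal cannot be told apart.

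Serine is made from a glycolytic intermediate in 3 steps, catalyzed in turn by Phgdh, Psat1 and Psph. Serine hydroxymethyltransferase then moves a carbon from serine to tetrahydrofolate and leaves glycine, through Shmt2 in mitochondria and Shmt1 in the cytosol. In mitochondria Mthfd2 and its paralog Mthfd2l oxidize the folate-bound carbon and Mthfd1l releases it as formate, while Aldh1l2 burns it to carbon dioxide. In the cytosol the trifunctional enzyme Mthfd1 takes up the formate, and the folate-bound carbon then serves purine synthesis, methionine synthesis and thymidylate synthesis by Tyms. Dividing cells, leukemic blasts among them, draw on this route for nucleotides.

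Levels are given on 2 scales. TPM, transcript abundance with the same total in every library, is scaled for transcript length and allows genes to be compared with each other. CPM, the usual read count scaled to a common total on library sizes corrected for composition, carries the test. A gene passed with an adjusted p-value under 0.05 in the quasi-likelihood test of edgeR across all 16656 genes tested, and it was called if its log2 fold change also exceeded 1 in size. All fold changes are Rpl22-/- over Rpl22+/+, on the log2 scale, with the SE of the fit. In bulk RNA, fewer cells of a type and less RNA per cell cannot be told apart.

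The libraries held 35828500 to 102866127 estimated reads, the fewest in Rpl22-/- replicate 1. Rpl22 itself had 148, 235 and 152 CPM in the Rpl22+/+ libraries and 58.3, 89.9 and 73.5 CPM in the Rpl22-/- libraries, without overlap (-1.27 ± 0.25, adjusted p = 0.0106). Some Rpl22 reads were therefore still assigned in Rpl22-/- cells. Rpl22+/+ replicate 2 stood apart from the other Rpl22+/+ libraries. Its composition factor was 0.853 against 1.002 to 1.065 in the others, and it held 17.3 CPM of the proliferation gene Mki67 against 818 and 669 CPM in its genotype. Of 20 proliferation markers it was nevertheless the highest Rpl22+/+ library for 16 and the lowest for 4. Low values there were not limited to proliferation genes. Among the 10 myeloid markers, Ptprc had 155 CPM in that library against 1130 and 1050 CPM in its genotype. Every other myeloid marker was highest there among the Rpl22+/+ libraries. All 9 enzymes tested had their highest Rpl22+/+ CPM in that library, as did 54.7% of all genes tested. All 10 myeloid markers were detected, and 1 passed higher in Rpl22-/-, 3 lower and 6 in neither direction. Those lower were Itgam, which encodes CD11b (-1.02, adjusted p = 0.00482), Ly6g, the main antigen of the Gr1 antibody (-3.49, adjusted p = 9.7e-05), and the Fc receptor gene Fcgr3 (-1.51, adjusted p = 0.00147). The granule enzyme gene Mpo was higher (2.99, adjusted p = 0.000663), and Ly6c1 and Ly6c2, whose products that antibody can also bind, stood at 0.40 and 0.51 without passing (Ly6c2 passed under 6 of the 20 alternative processing settings tried). Erythroid markers summed to 155 to 168 CPM in Rpl22+/+ and 729 to 1270 CPM in Rpl22-/- libraries, with 8 of 10 higher and passed and the defining factor Klf1 not passed. Klf1 had 0.256, 0.594 and 0.321 CPM in the Rpl22+/+ libraries and 0, 1.26 and 0 CPM in the Rpl22-/- libraries, and it passed lower when Rpl22-/- replicate 2, the only Rpl22-/- library with reads of it, was left out (adjusted p = 0.0165). B cell markers summed to 604 to 765 and 378 to 582 CPM, with 1 of 6 passed, lower. T and NK cell markers summed to 58.9 to 85.2 and 28.7 to 45.0 CPM, with 4 of 7 lower, all T cell genes, and the NK genes Klrb1c (1.07, adjusted p = 0.0255) and Ncr1 (2.49, adjusted p = 0.00233) higher. Klrb1c missed the threshold under 6 of the 20 alternatives, among them the fits without Rpl22+/+ replicate 1 or 3 and without each Rpl22-/- replicate in turn (adjusted p = 0.0514 to 0.0982). The part of these cells in the values of the enzymes was not tested.

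The lower values were those of 3 mitochondrial enzymes and Psat1. Of the 4 mitochondrial enzymes, Mthfd2 and Mthfd1l fell in Rpl22-/- cells to 0.566 and 0.577 of their Rpl22+/+ level, Shmt2 stood at 0.609 of it without passing, and Aldh1l2 was removed by the filter on low counts. The 3 cytosolic enzymes Shmt1, Mthfd1 and Tyms had small positive fold changes that did not pass. In serine synthesis, Psat1 stood at 0.632 of its Rpl22+/+ level without passing, and Phgdh and Psph had small positive fold changes. In all, 2 of 9 enzymes tested passed, both lower, and 0 were called, against 27.6% of all genes tested that passed (13.7% higher and 13.8% lower) and 17.5% that were called. At an unadjusted p under 0.05 there were 4 of the 9 (Mthfd2, Mthfd1l, Shmt2 and Psat1), against 39.0% of all genes tested, and the DESeq2 test also called 0. The CPM ranges of the genotypes were apart for 4 enzymes, the same 4 and all lower in Rpl22-/-, against 22.2% of all genes tested, and 0 were apart and higher, against 23.9%. The share of the enzymes that passed was thus near that of all genes. The median fold change was 0.04 over the 9 enzymes and 0.07 over all genes tested.

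**Figure D1:**
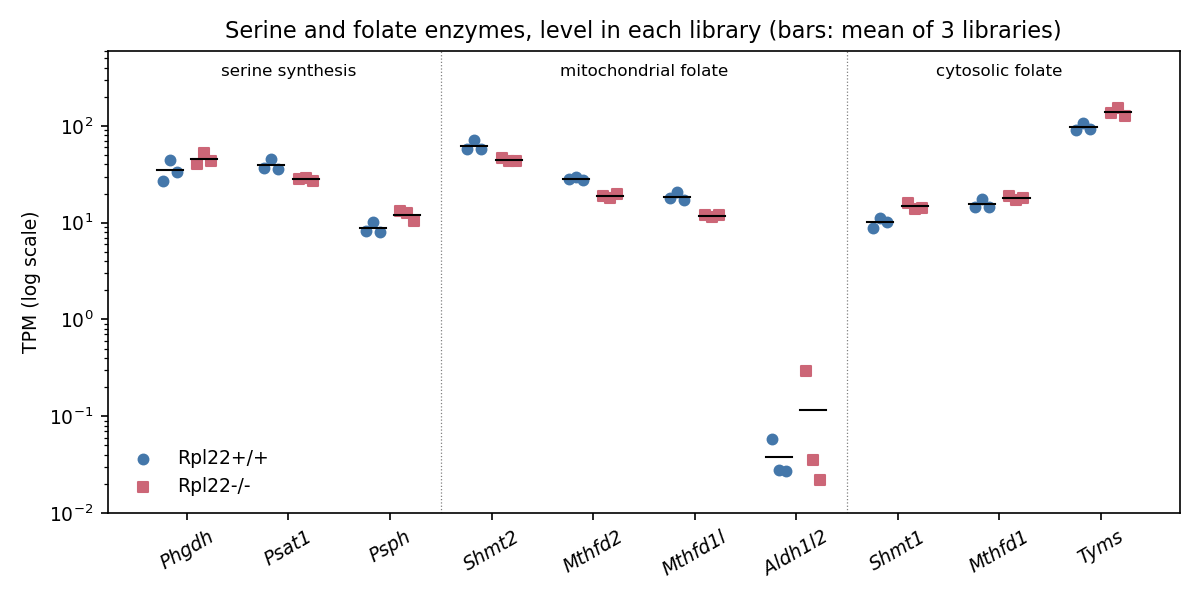
TPM (log scale) of the 10 enzymes in each library, grouped by pathway position. Circles are Rpl22+/+ and squares Rpl22-/- libraries, and bars are means of 3. The 3 squares of Psat1, Shmt2, Mthfd2 and Mthfd1l lie under the circles, those of Psph, Shmt1 and Tyms above them, and Aldh1l2 lies under 1 TPM throughout.

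The sequence before the start site is shown for the mitochondrial enzymes Shmt2, Mthfd2 and Mthfd1l, for the cytosolic Shmt1 and Mthfd1 and for Tyms, since their values are set side by side. Each run is the 250 bases upstream of the RefSeq start on the GRCm38.p6 build, read 5′ to 3′ along the gene's own strand. Capitals mark any match, on either strand, to CACGTG (the E-box that Myc and Max can bind), GCGCATGC (the core of the Nrf1 site), TGATGNAA (an Atf4 response element), CCAAT (the CCAAT box) or the E2F letters TTTCCCGC, TTTGGCGC, TTTCGCGC and TTTGCCGC.
Shmt2, chr10:127522445-127522694, minus strand: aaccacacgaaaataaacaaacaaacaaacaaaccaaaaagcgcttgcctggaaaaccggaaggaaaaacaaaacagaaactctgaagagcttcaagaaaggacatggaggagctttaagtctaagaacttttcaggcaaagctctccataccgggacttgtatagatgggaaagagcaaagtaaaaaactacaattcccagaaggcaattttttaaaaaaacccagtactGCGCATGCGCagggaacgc
Shmt1, chr11:60811266-60811515, minus strand: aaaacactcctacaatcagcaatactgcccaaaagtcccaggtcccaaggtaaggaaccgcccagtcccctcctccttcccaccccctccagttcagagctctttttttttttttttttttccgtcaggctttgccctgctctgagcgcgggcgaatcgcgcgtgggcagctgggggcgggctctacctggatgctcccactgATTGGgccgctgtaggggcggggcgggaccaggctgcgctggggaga
Mthfd1l, chr10:3972825-3973074, plus strand: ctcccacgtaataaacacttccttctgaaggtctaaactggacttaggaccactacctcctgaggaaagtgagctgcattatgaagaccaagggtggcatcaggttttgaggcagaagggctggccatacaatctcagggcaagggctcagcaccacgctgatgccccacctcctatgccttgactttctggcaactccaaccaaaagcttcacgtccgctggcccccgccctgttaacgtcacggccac
Mthfd1, chr12:76254982-76255231, plus strand: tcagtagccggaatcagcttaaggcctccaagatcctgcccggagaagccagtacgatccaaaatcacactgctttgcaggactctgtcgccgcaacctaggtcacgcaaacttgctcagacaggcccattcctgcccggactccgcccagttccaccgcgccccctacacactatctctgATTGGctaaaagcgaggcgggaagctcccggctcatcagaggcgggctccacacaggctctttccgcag
Mthfd2, chr6:83317605-83317854, minus strand: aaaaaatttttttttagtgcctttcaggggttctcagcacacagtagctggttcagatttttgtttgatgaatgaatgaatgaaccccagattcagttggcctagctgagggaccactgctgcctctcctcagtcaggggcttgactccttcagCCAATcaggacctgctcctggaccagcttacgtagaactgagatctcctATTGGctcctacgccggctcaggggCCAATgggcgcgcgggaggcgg
Tyms, chr5:30073626-30073875, minus strand: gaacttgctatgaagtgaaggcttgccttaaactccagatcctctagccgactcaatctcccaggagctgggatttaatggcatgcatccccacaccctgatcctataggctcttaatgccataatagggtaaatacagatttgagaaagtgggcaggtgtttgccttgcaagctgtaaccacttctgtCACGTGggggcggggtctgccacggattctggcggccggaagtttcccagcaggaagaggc

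The Nrf1 core was in the Shmt2 window, on both strands in overlapping matches 19 to 10 bases before the start, and in 2.26% of 32851 RefSeq windows of the same length. The E-box was in the Tyms window and in 6.02% of all windows. CCAAT was in 6 of the 10 windows matched to the enzymes (9 genes, with 2 starts for Psat1 and none for Aldh1l2), against 33.8% of all windows. It was found 3 times in the Mthfd2 window, once each in those of Shmt1 and Mthfd1, and also in windows of Phgdh, Psph and Psat1 that are not shown. TGATGNAA, present in 3.45% of all windows, and the 4 E2F strings, present in 0.256% to 0.895%, were in none of those 10 windows. The motifs were chosen after the values were seen, and a match is not a binding site.

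Mthfd2, the mitochondrial dehydrogenase and cyclohydrolase (ENSMUSG00000005667, chromosome 6, 83282673 to 83302890 on GRCm39), had 37.7, 53.1 and 38.0 CPM in the Rpl22+/+ libraries and 23.2, 25.2 and 24.6 CPM in the Rpl22-/- libraries. The ranges were apart, with the Rpl22-/- libraries close together. The fold change was -0.82 ± 0.17 (95% interval -1.23 to -0.41, adjusted p = 0.014). It passed in 18 of 20 alternatives and missed the threshold, at a like size, without Rpl22-/- replicate 1 (-0.78, adjusted p = 0.0611) and without Rpl22-/- replicate 3 (-0.82, adjusted p = 0.0609).

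Mthfd1l, which releases formate from mitochondrial folate (ENSMUSG00000040675, chromosome 10, 3923118 to 4117081), had 45.5, 70.0 and 46.8 CPM in Rpl22+/+ and 30.9, 32.3 and 30.5 CPM in Rpl22-/- libraries. Here too each Rpl22-/- library lay under each Rpl22+/+ library. The fold change was -0.79 ± 0.19 (95% interval -1.25 to -0.33, adjusted p = 0.0241). It also passed in 18 of 20 alternatives, and leaving out Rpl22-/- replicate 1 gave an adjusted p of 0.0853, and leaving out Rpl22-/- replicate 3 gave 0.0941.

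Shmt2, the mitochondrial serine hydroxymethyltransferase and the highest of the mitochondrial enzymes (ENSMUSG00000025403, chromosome 10, 127352992 to 127358313), had 79.9, 136 and 81.3 CPM in Rpl22+/+ and 56.8, 64.8 and 59.1 CPM in Rpl22-/- libraries. The ranges were apart, and Rpl22+/+ replicate 2 was the highest library by far. The fold change was -0.72 ± 0.23 (95% interval -1.27 to -0.17) and missed the threshold (adjusted p = 0.0606). Without Rpl22+/+ replicate 2 it was -0.46 and passed (adjusted p = 0.0196), as it did with the replicate number as a block (adjusted p = 0.0272). It passed in 12 of 20 alternatives and was lower in all 20.

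Aldh1l2, the mitochondrial formyl-tetrahydrofolate dehydrogenase, had 8, 8 and 6 reads in Rpl22+/+ and 4, 7 and 7 in Rpl22-/- libraries, or 0.0216 to 0.29 TPM. Of its 7 listed transcripts 5 held at least 10% of its TPM in either genotype. These shares rest on 0 to 7 reads per transcript and library and describe little. Aldh1l2-207 reached a mean of 23.2% in Rpl22-/- libraries from 1 read in replicate 1. The filter on low counts removed Aldh1l2, so the gene is not among those tested. Its base mean here was 0.653 of the authors' value, so its reads fall short of theirs. Without that filter its fold change was -0.34 ± 0.58 (adjusted p = 0.744).

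The cytosolic enzymes had overlapping CPM ranges. Shmt1 (ENSMUSG00000020534, chromosome 11) had 14.6, 22.8 and 14.7 CPM in Rpl22+/+ and 21.0, 23.1 and 20.7 CPM in Rpl22-/- libraries, with Rpl22+/+ replicate 2 inside the Rpl22-/- range (0.32 ± 0.21, adjusted p = 0.316). Without that library the fold change was 0.52 and passed (adjusted p = 0.0166), while without Rpl22+/+ replicate 1 or 3 it was 0.20 and 0.21 (adjusted p = 0.614 and 0.632). On log2(TPM + 1) with limma it passed (adjusted p = 0.0297). Mthfd1 (ENSMUSG00000021048, chromosome 12) had 32.4, 51.5 and 32.5 CPM in Rpl22+/+ and 37.6, 43.6 and 38.3 CPM in Rpl22-/- libraries. Its fold change of 0.04 ± 0.21 (95% interval -0.47 to 0.54, adjusted p = 0.923) passed in 0 of 20 alternatives. The interval leaves room for a difference of either sign.

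Tyms, thymidylate synthase (ENSMUSG00000025747, chromosome 5), had 51.3, 73.5 and 52.6 CPM in Rpl22+/+ and 72.5, 86.1 and 64.5 CPM in Rpl22-/- libraries. Again Rpl22+/+ replicate 2 overlapped the other genotype (0.33 ± 0.19, adjusted p = 0.262). On the TPM scale the values were 90.8, 107 and 94.2 against 137, 153 and 127 TPM, without overlap, and limma on log2(TPM + 1) gave an adjusted p of 0.0143. With 1 library left out the fold change ranged from 0.21 (without Rpl22-/- replicate 2) to 0.48 (without Rpl22+/+ replicate 2), and it passed in none of these fits.

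Of the serine synthesis enzymes, Phgdh, which commits carbon to the pathway (ENSMUSG00000053398, chromosome 3), had 35.9, 65.8 and 35.0 CPM in Rpl22+/+ and 50.6, 66.7 and 52.3 CPM in Rpl22-/- libraries. Replicate 2 was the highest library of each genotype (0.31 ± 0.28, adjusted p = 0.468). With 1 library left out the fold change ranged from 0.15 (without Rpl22+/+ replicate 3, adjusted p = 0.796) to 0.63 (without Rpl22+/+ replicate 2, adjusted p = 0.024). Leaving out Rpl22+/+ replicate 1 gave 0.16, and leaving out Rpl22-/- replicate 2 gave 0.18. Psat1, the aminotransferase of the second step (ENSMUSG00000024640, chromosome 19), had 61.0, 104 and 63.1 CPM in Rpl22+/+ and 44.6, 53.9 and 45.5 CPM in Rpl22-/- libraries, without overlap (-0.66 ± 0.23, adjusted p = 0.0801). It passed with the replicate block (adjusted p = 0.0258) and without Rpl22+/+ replicate 2 (-0.41, adjusted p = 0.0478), and was lower in all 20 alternatives. Psph, the phosphatase of the last step (ENSMUSG00000029446, chromosome 5), had 9.56, 15.2 and 9.58 CPM in Rpl22+/+ and 14.6, 15.4 and 12.3 CPM in Rpl22-/- libraries, with Rpl22+/+ replicate 2 inside the Rpl22-/- range (0.30 ± 0.23, adjusted p = 0.383). It passed without Rpl22+/+ replicate 2 (0.52, adjusted p = 0.0355) and was 0.18 without Rpl22+/+ replicate 1 or 3 (adjusted p = 0.682 and 0.702).

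**Figure D2:**
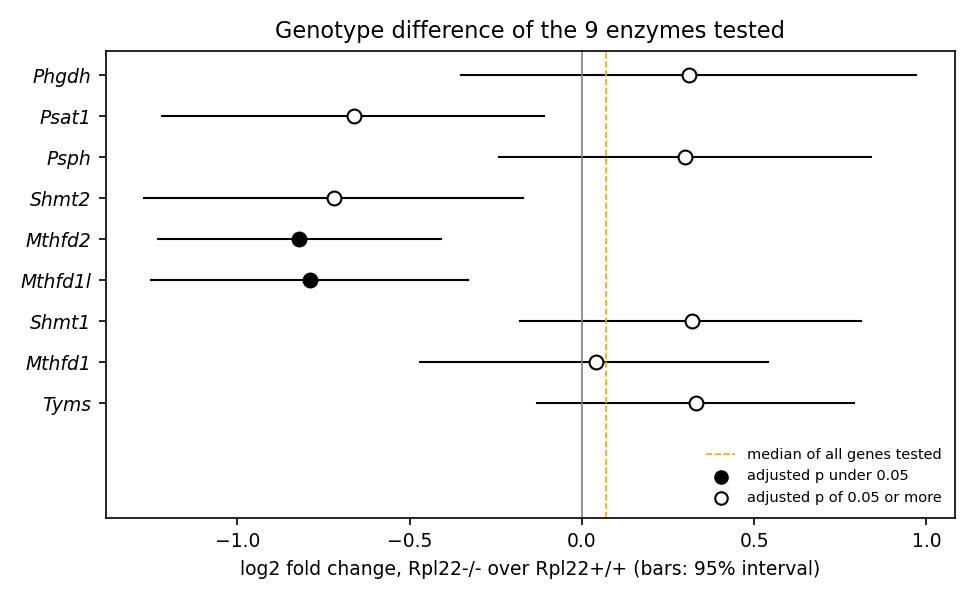
Log2 fold change of the 9 enzymes tested, with 95% intervals. Filled points passed, open points did not, and the dashed line is the median of all genes tested (0.07). The intervals of Mthfd2, Mthfd1l, Shmt2 and Psat1 lie under 0, and the others cross it.

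Leaving out Rpl22+/+ replicate 2 moved the count from 2 to 7 of the 9 enzymes, 4 lower and 3 higher, while the share of all genes that passed went from 27.6% to 40.0%. Leaving out Rpl22-/- replicate 1 or Rpl22-/- replicate 3 left 0 passed, with 17.5% and 16.4% of all genes. The step to TPM, which also drops the composition factor, changed the counts for the enzymes with positive fold changes too. On TPM, 3 enzymes (Psph, Shmt1 and Tyms) lay higher in Rpl22-/- without overlap, against 30.4% of all genes tested, and the same 4 as on CPM lay lower, against 18.6%. By limma on log2(TPM + 1), 6 of 9 passed, 4 lower and 2 higher, against 32.2% of all genes. That fit changes the test as well as the scale. On counts, a transcript length offset gave 3 passed, 0 of them higher, against 28.0% of all genes. Dropping the composition factor gave 5 passed, 2 of them higher, against 34.6%.

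In Rpl22+/+ cells the order of the enzymes by mean TPM was Tyms (97.3 ± 8.48, SD, n = 3), Shmt2 (62.3 ± 7.64), Psat1 (39.5 ± 5.26), Phgdh (35.2 ± 8.91), Mthfd2 (28.5 ± 1.03), Mthfd1l (18.6 ± 1.75), Mthfd1 (15.6 ± 1.9), Shmt1 (10.1 ± 1.17), Psph (8.85 ± 1.17) and Aldh1l2 (0.0378 ± 0.0178). The library ranges of Psat1 and Phgdh, Phgdh and Mthfd2, Mthfd1l and Mthfd1, and Shmt1 and Psph overlapped. In Rpl22-/- cells Phgdh (45.6 ± 6.66) stood level with Shmt2 (44.4 ± 1.73), and Mthfd1l (11.8 ± 0.351) had moved from the sixth place to the ninth, overlapping Psph (12.1 ± 1.6).

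The place of Tyms rests on short transcripts. Tyms-205 and Tyms-207, both annotated as targets of nonsense-mediated decay and with mean effective lengths of 438 and 456 bases, held 50.8% and 20.5% of its TPM in Rpl22+/+ and 49.3% and 26.7% in Rpl22-/- libraries. The longer protein-coding Tyms-201 stood at 8.26 ± 0.675 TPM and 9.34 ± 1.1 TPM (SD, n = 3), with a fold change of -0.01 (adjusted p = 0.993). Reads shared between overlapping transcripts are divided by estimation, so these shares are uncertain.

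The balance between paralogs within a library does not depend on how libraries are scaled to each other. The TPM ratio of Shmt2 to Shmt1 was 6.58, 6.32 and 5.64 in the Rpl22+/+ libraries and 2.88, 3.13 and 3.04 in the Rpl22-/- libraries. The ratio of Mthfd1l to Mthfd1 was 1.24, 1.16 and 1.20 against 0.646, 0.667 and 0.668. In both pairs the Rpl22+/+ libraries, replicate 2 included, lay close together and above every Rpl22-/- library. The difference in the mean log2 ratio was -1.03 for Shmt2 to Shmt1 and -0.86 for Mthfd1l to Mthfd1.

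Mthfd2 against the cytosolic Mthfd1 gave 1.95, 1.67 and 1.92 in Rpl22+/+ and 1.00, 1.06 and 1.10 in Rpl22-/- libraries, a log2 difference of -0.81. Mthfd2 against Mthfd2l, the paralog more typical of adult tissue, gave 43.0, 41.6 and 34.1 against 14.5, 7.85 and 10.2, a log2 difference of -1.90. Psat1 against Phgdh, successive steps of serine synthesis, gave 1.34, 1.02 and 1.08 against 0.709, 0.543 and 0.620, a log2 difference of -0.88. Each of these 5 ratios was apart between genotypes. No share over ratios of other gene pairs was computed to set beside that count. The numerators are the 4 enzymes that were themselves apart and lower on TPM, so the ratios are not independent of those values. Each ratio had a two-sided exact permutation p of 0.1, the smallest that 3 against 3 libraries can give. After Benjamini-Hochberg adjustment over 7 ratios it was 0.14, so none can pass 0.05 in this design. Psph to Phgdh overlapped, at 0.302, 0.227 and 0.242 against 0.332, 0.240 and 0.235 (log2 difference 0.06, exact p = 0.7). Aldh1l2 to Aldh1l1 also overlapped (exact p = 0.2) and rests on few reads.

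**Figure D3:**
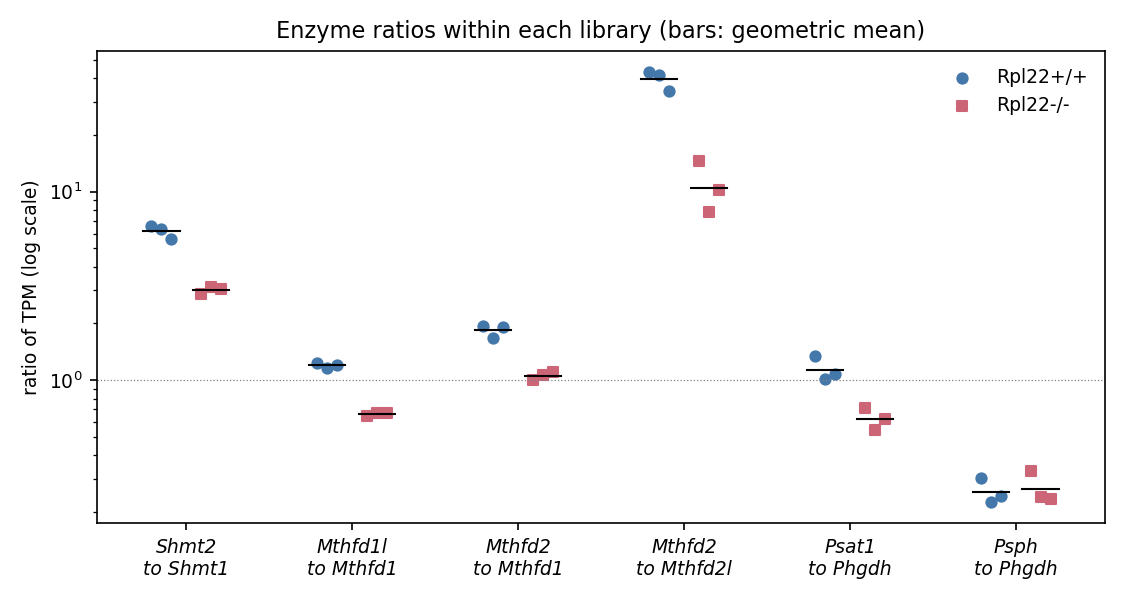
Ratio of TPM (log scale) of 6 enzyme pairs in each library, with the geometric mean of 3 libraries as a bar. Circles are Rpl22+/+ and squares Rpl22-/-. The squares lie under the circles for every pair but Psph to Phgdh, and Shmt2 to Shmt1 goes from between 5.64 and 6.58 to between 2.88 and 3.13.

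The main protein-coding transcripts of Mthfd2, Shmt2, Mthfd1l and Psat1 all had negative fold changes, none of which passed. Over all 9 enzymes 38 transcripts were tested and 1 passed, against 5.81% of the 52589 transcripts tested. Mthfd2-201 held 90.9% ± 2.58 of Mthfd2 TPM in Rpl22+/+ and 82.7% ± 1.13 in Rpl22-/- libraries (SD, n = 3), with a transcript fold change of -0.93 (adjusted p = 0.0986). Shmt2-201 and Shmt2-206, both protein coding, each had a fold change of -0.86 (adjusted p = 0.191 and 0.293), and they held 63.2% and 18.9% of Shmt2 TPM in Rpl22+/+. The non-coding Shmt2-204 held 7.94% and 11.1%, and Shmt2-202, a retained intron, 6.28% and 10.7%. Mthfd1l-202 and Mthfd1l-201 held 71.5% and 25.9% in Rpl22+/+, with fold changes of -0.88 and -1.15 (adjusted p = 0.133 and 0.139). Psat1-201 and Psat1-205 had fold changes of -0.67 and -1.11 (adjusted p = 0.302 and 0.206), and Psat1-204, a retained intron, 0.29.

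The transcript that passed was Shmt1-211, annotated as protein coding, with 56, 167 and 54 assigned reads in Rpl22+/+ and 0 in every Rpl22-/- library. It was at least 93.7-fold lower, against a floor of 3 reads over the Rpl22-/- group (adjusted p = 0.0264), and held 12.0% of Shmt1 TPM in Rpl22+/+. The bound covers counting error only, on reads divided among transcripts by estimation, and was 59.9-fold without Rpl22+/+ replicate 2 and 54.5-fold and 53.3-fold without Rpl22-/- replicate 2 and 3. The count of enzyme transcripts that passed was 0 with the replicate block and in 5 of the 6 fits that left out 1 library (every library but Rpl22+/+ replicate 2, without which it was 2). Shmt1-201 was the main form, with 61.4% and 54.9% of Shmt1 TPM. Shmt1-208, a processed transcript, held 10.2% and 17.6%, and Shmt1-205, a retained intron, 2.57% and 13.8%. Phgdh-201, Psph-201 and Mthfd1-201 held 85.9%, 89.1% and 86.1% of their genes' TPM in Rpl22+/+, with fold changes of 0.24, 0.13 and -0.01. The short Phgdh-202 held 14.0% and 9.27%, and Mthfd2-207 6.31% and 10.2%.

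The neighbours of these enzymes in the pathway were taken from 9 lists of 113 genes. Of the 108 tested, 22 passed higher and 16 lower, to be read, as are the counts of each list, against the 13.7% and 13.8% of all genes tested. Among 10 other folate enzymes tested, 4 passed higher and 0 lower (median 0.41). Mthfd2l went from 0.739 ± 0.0498 to 1.97 ± 0.413 CPM (1.41, adjusted p = 0.00927), and Aldh1l1, the cytosolic paralog of Aldh1l2, from 0.421 ± 0.14 to 2.75 ± 0.281 CPM (2.71, adjusted p = 0.00171), each SD with n = 3. Both therefore rose from low levels. Mtfmt, which formylates the mitochondrial initiator tRNA and is named here for its values, rose from 10.8 ± 1.08 to 26.3 ± 3.5 CPM (1.29, adjusted p = 0.00191).

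Carriers of serine and folate were mixed. Of 19 genes of serine uptake, transport and use tested, 3 passed higher and 3 lower (median -0.07). Sfxn1, the carrier of serine into mitochondria, rose from 55.5 ± 7.28 to 88.8 ± 4.46 CPM (0.68, adjusted p = 0.0135), with adjusted p of 0.0604, 0.0727 and 0.0529 without Rpl22+/+ replicate 1, Rpl22+/+ replicate 3 and Rpl22-/- replicate 1, and 0.0737 with the GC correction without the replicate block. Its paralog Sfxn3, named here for its values, fell from 36.0 ± 8.17 to 20.0 ± 1.58 CPM (-0.85, adjusted p = 0.0171), with adjusted p of 0.064 and 0.057 without Rpl22-/- replicates 1 and 3. Among 6 folate uptake and retention genes tested, 1 passed in each direction. The plasma membrane folate carrier Slc19a1 (0.27, adjusted p = 0.479) and the mitochondrial folate carrier Slc25a32 (0.12, adjusted p = 0.597) did not pass, though Slc19a1 did without Rpl22+/+ replicate 2 (0.55, adjusted p = 0.0228).

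Of 5 glycine cleavage and glycine use genes tested, 1 passed in each direction. Gcat, which yields glycine in the breakdown of threonine, fell from 5.62 ± 2.29 to 1.35 ± 0.243 CPM (-2.05, adjusted p = 0.00539), but a second gene identifier with the same symbol stood at 1.99 and 1.95 CPM (-0.02), and reads may be divided between them. Gldc, the glycine decarboxylase, was removed by the filter on low counts, with 21 reads over the Rpl22+/+ and 6 over the Rpl22-/- libraries (without the filter -1.76, adjusted p = 0.197). In the methionine cycle and transsulfuration, 4 of 11 passed higher and 0 lower (median 0.17), and 1 passed without Rpl22+/+ replicate 1, Rpl22+/+ replicate 3 or Rpl22-/- replicate 3. Ahcy, which clears S-adenosylhomocysteine, rose from 35.5 ± 13.1 to 79.9 ± 11.9 CPM (1.17, adjusted p = 0.0198), with adjusted p of 0.065, 0.078 and 0.0595 without Rpl22+/+ replicate 1, Rpl22+/+ replicate 3 and Rpl22-/- replicate 3. Gclm, a subunit of the first enzyme of glutathione synthesis, rose from 25.4 ± 3.1 to 59.6 ± 3.7 CPM (1.23, adjusted p = 0.00136).

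Nucleotide synthesis, which uses the folate-bound carbon, was also mixed. Of 13 purine genes 2 passed higher and 1 lower (median 0.16), with Impdh1, of the guanine branch, rising from 22.8 ± 6.74 to 50.1 ± 1.63 CPM (1.13, adjusted p = 0.0097). Of 13 genes of thymidylate and deoxynucleotide supply 3 passed in each direction (median 0.14). Samhd1, which degrades deoxynucleotides, fell from 623 ± 39.5 to 238 ± 16.6 CPM (-1.39, adjusted p = 0.000759). Thymidine kinase Tk1, which salvages thymidine beside Tyms, did not pass (0.14, adjusted p = 0.626). Of 20 proliferation markers 0 passed higher and 1 passed lower (median 0.03). Mki67 had 936, 173 and 388 CPM in the Rpl22-/- libraries against the 818, 17.3 and 669 CPM above (-0.01, adjusted p = 0.997), with its lowest value in replicate 2 of each genotype. Over the 20 markers that was not the rule, since Rpl22-/- replicate 2 was the highest library of its genotype for 9 and the lowest for 2.

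Atf4, the amino acid response factor known to act on Phgdh, Psat1, Shmt2 and Mthfd2, had a fold change of 0.26 (adjusted p = 0.535), which ranged from 0.02 to 0.49 over the 20 alternatives and passed in 0 of them. Of 22 tested genes of the Atf4 and amino acid response 3 passed higher and 4 lower (median 0.09), against 27.6% of all genes tested that passed in either direction. Asns, asparagine synthetase, fell from 56.1 ± 11.4 to 17.1 ± 1 CPM (-1.72, adjusted p = 0.000896), and Slc7a11, the cystine carrier, from 10.8 ± 2.98 to 2.30 ± 0.118 CPM (-2.23, adjusted p = 0.00132). Ddit4, an inhibitor of mTOR signaling, rose from 11.2 ± 3.21 to 53.0 ± 35.5 CPM (2.24, adjusted p = 0.0194), with adjusted p of 0.0655 and 0.07 without Rpl22+/+ replicates 1 and 3.

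Of 9 other named regulators 1 passed higher and 3 lower (median 0.04). Myc, a transcription factor known to promote Shmt2, Mthfd2 and nucleotide synthesis genes, rose from 36.1 ± 7.59 to 125 ± 6.89 CPM (1.79, adjusted p = 0.000804), while its partner Max fell from 188 ± 26.3 to 77.1 ± 2.31 CPM (-1.28, adjusted p = 0.00132). Bach1, a heme-sensitive repressor, fell from 134 ± 4.37 to 63.9 ± 6 CPM (-1.07, adjusted p = 0.00163). Trp53 did not pass (0.07, adjusted p = 0.835), and without Rpl22+/+ replicate 2 it stood at 0.29 (adjusted p = 0.0475).

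**Figure D4:**
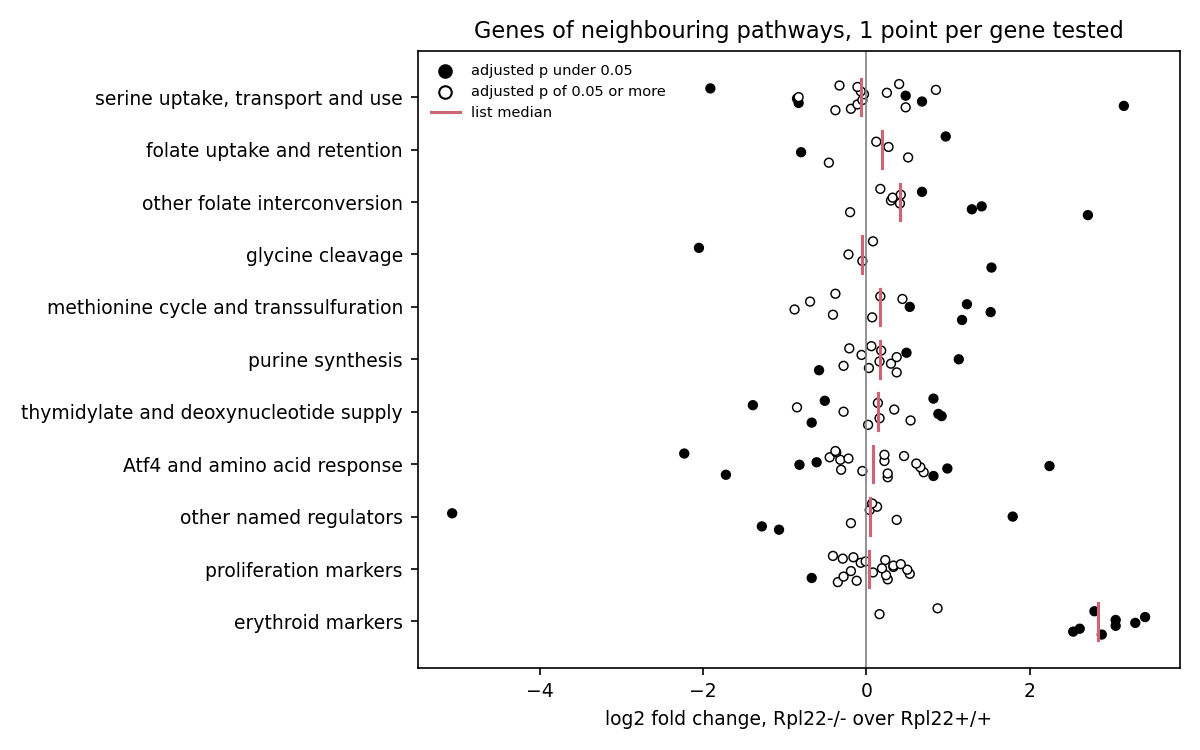
Log2 fold change of each gene tested in the 9 pathway lists, the proliferation markers and the erythroid markers. Each point is a gene, filled where it passed, and the vertical bar is the list's median. List medians lie between -0.07 and 0.41 except for the erythroid markers, at 2.84.

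Likeness of pattern was measured as the Pearson correlation of log2 CPM over the 6 libraries, as a description. Over 11510 genes the closest to Phgdh were Ndufs6 (0.999), Nudt16l1 (0.999) and Uqcr11 (0.998). The closest to Mthfd2 were Ethe1 (1.00), Ccni (0.999) and Lrrc61 (0.999). Among the 108 pathway genes, Eif2ak1, a kinase upstream of Atf4, was the closest to both Mthfd2 (0.996) and Mthfd1l (0.989). Mtap was the closest to Psat1 (0.983) and Shmt2 (0.973), Ppat to Phgdh (0.996) and Tyms (0.948), Gart to Shmt1 (0.997), Gcsh to Mthfd1 (0.989) and Slc19a1 to Psph (0.972). These correlations rest on 6 points, and Rpl22+/+ replicate 2 was the highest Rpl22+/+ library for all 9 enzymes tested.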

How the data were processed

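CD11b+Gr1+ splenocytes of Mll-AF9 mice were profiled in 6 libraries, grouped by their titles. The authors prepared stranded poly(A) libraries, sequenced paired ends and used Trimmomatic for trimming and Salmon for quantification. They deposited, per library, estimated counts and TPM per transcript. Versions and the transcript set are not given in the sources used here. Their own DESeq2 comparison was deposited too (base mean signal, fold changes, p-values); of it only the base mean and GRCm39 positions were used. The base mean computed here was 0.975 to 0.99 of the authors' value for the enzymes tested. For Aldh1l2, which was not tested, it was 0.653 of their value.

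Estimated counts were summed to genes by GENCODE vM21 transcript pairs and rounded. Of 276623 transcripts 136036 matched, with 97.96% to 98.14% of reads. Library totals ranged from 35828500 to 102866127 estimated reads. The 95% intervals are those of the fit and carry the spread between libraries. Genes kept by filterByExpr (16656) were tested with edgeR 4.0.16 in R 4.3.3 (TMM, quasi-likelihood F test, genotype only, Benjamini-Hochberg over all genes). The script was tested on simulated data. TPM ratios were compared by exact two-sided permutation tests. Promoter sequences are from RefSeq (GRCm38.p6). No protein sequence was used here.

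Alternatives in scaling were upper-quartile factors, size factors of DESeq2 1.42.0 and no composition factor. Others were no filter or a minimum mean of 50 counts; the DESeq2 test; limma-voom; limma 3.58.1 on log2(TPM + 1) or log2(TPM + 0.1); a length offset; pseudogene reads added; the replicate number as a block; a GC correction without and with the block; CPM in place of TPM for ratios; and each library left out in turn. Beside the enzymes and Rpl22, named genes were the 2 called genes with the largest rise and the 2 with the largest fall in each pathway list (mean CPM of at least 1), 11 genes chosen whatever their values (some are not reported here), the 3 genes most like Phgdh and like Mthfd2, the pathway gene most like each enzyme, and transcripts with at least 10% of an enzyme's TPM. The enzymes, lists and rules were chosen with earlier results of these data known. Same-numbered libraries deviated together at r = 0.57, 0.71 and 0.13 over genes averaging 50 counts or more and at 0.48, 0.63 and 0.097 over all genes tested. The unlike-numbered Rpl22+/+ replicate 3 and Rpl22-/- replicate 1 stood at 0.43 and 0.36, above the replicate 3 pair, and the other unlike pairs were negative. Whether the numbers pair the libraries was therefore not settled.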

Additional observations from a re-analysis of the deposited data

How the results depend on the processing

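Of the 9 enzymes tested, 2 passed, and 0 were called under any of the 20 alternatives. With no composition factor 5 passed (2 higher, against 34.6% of all genes in that fit), with limma on log2(TPM + 1) or log2(TPM + 0.1) 6 (4 lower, 2 higher, against 32.2% and 32.6%), and 4, all lower, with a minimum mean of 50 counts (33.7%), by DESeq2 (31.5%), with the replicate block (33.8%), or the GC correction with the block (42.4%). Over the fits that left out 1 library, in which 15.1% to 40.0% of all genes passed, the count ranged from 0 to 7, with 0 to 3 higher and 0 to 4 lower, the pathway genes passed from 20 to 58 (38 with all libraries), and the enzyme transcripts from 0 to 2. By list, those passed ranged from 3 (without Rpl22+/+ replicate 3 or Rpl22-/- replicate 3) to 11 for the Atf4 response (7 with all), 1 to 5 for the methionine cycle (4), 1 to 6 for purines (3), 2 (without Rpl22+/+ replicate 3) to 9 for thymidylate supply (6), 2 (without Rpl22-/- replicate 1) to 8 for serine transport (6), 3 to 7 for other folate enzymes (4), 1 to 4 for folate uptake (2), 1 to 2 for glycine cleavage (2) and 4 to 6 for regulators (4), the highest each time without Rpl22+/+ replicate 2. Those transcripts numbered 2 with no composition factor and 0 with the replicate block, against 1. With the block Shmt2 and Psat1 passed (adjusted p = 0.0272 and 0.0258, and with the GC correction added 0.00278 and 0.0126), and no other enzyme changed its side of the threshold. With no composition factor the median of all genes tested was 0.19, against 0.07. With 1 library left out, Mthfd1 ranged from -0.08 (without Rpl22+/+ replicate 1 or 3) to 0.25 (without Rpl22+/+ replicate 2). Psph to Phgdh changed sign as a CPM ratio (-0.03) and, with 1 library left out, ranged from -0.10 (without Rpl22-/- replicate 1) to 0.18 (without Rpl22+/+ replicate 1), with -0.02 without Rpl22+/+ replicate 2. Mki67, at -0.01, stood at 0.01 with upper-quartile factors, 0.06 with no composition factor, 0.96 by limma-voom, 0.81 and 0.97 by limma on log2(TPM + 1) and log2(TPM + 0.1), 0.79 with the replicate block, and 0.02 and 0.76 with the GC correction without and with the block. With 1 library left out Mki67 ranged from -0.84 (without Rpl22-/- replicate 1) to 0.53 (without Rpl22+/+ replicate 1). Likewise Trp53 ranged from -0.05 (without Rpl22+/+ replicate 1) to 0.29 (without Rpl22+/+ replicate 2), and Slc25a32 from -0.01 (without Rpl22+/+ replicate 2) to 0.15 (without Rpl22+/+ replicate 1), up to 0.23 over all 20 alternatives. Klf1, with reads in 1 of 3 Rpl22-/- libraries and a fitted value of 0.16, stood at -3.0 by limma-voom, -0.05 and -0.89 by limma on log2(TPM + 1) and log2(TPM + 0.1), -1.68 with the replicate block, -0.03 and -1.72 with the GC correction without and with the block, and from -7.81 (without Rpl22-/- replicate 2) to 0.75 (without Rpl22-/- replicate 3) with 1 library left out, -0.08 without Rpl22+/+ replicate 1. The cause of these changes was not tested. Aldh1l2 and Gldc were removed by the filter on low counts. What kept their counts low, whether depth, expression or the matching of transcripts, was not tested.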
